A study of Mus musculus with 9 samples.

Results

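The genes described here are 10 regulators of alternative splicing known from striated muscle: Rbfox1, Rbfox2, Rbfox3, Rbm20, Rbm24, Mbnl1, Mbnl2, Celf1, Celf2 and Ptbp1. They were chosen by name from the 38293 genes of a raw read count table, by a rule that uses no threshold on their values, although earlier results of these data were known. The table holds RNA sequencing of mouse ventricles at postnatal day 7, from 5 control hearts (Arid1a f/f) and 4 Arid1a cKO hearts (aMHC-Cre;Arid1a f/f). Both groups carry the floxed Arid1a alleles, on a C57BL/6J background and with pups of either sex, and Cre is present only in the cKO. The αMHC promoter drives Cre in cardiomyocytes, so the other cells of the ventricle keep Arid1a, the gene of a SWI/SNF chromatin remodeller subunit. The question was how loss of Arid1a changes the level of these regulators.

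Splicing regulators bind short RNA motifs in and around alternative exons and favour either their inclusion or their skipping. RBFOX proteins bind (U)GCAUG, RBM20 acts on titin and on calcium handling transcripts, RBM24 favours inclusion of muscle exons, and PTBP1 represses many exons of differentiated tissues. MBNL and CELF proteins act on many of the same exons, often in opposite directions, and their balance shifts as the heart matures after birth. All values here are levels of gene transcripts. Counts per gene do not show which exons were used, so splicing itself was not measured.

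Rbfox1 (ENSMUSG00000008658) lies on chromosome 16 of GRCm38, from 5885355 to 7411526 on the plus strand, and GENCODE M21 gives it 8 transcript starts. The sequence before 2 of its starts is shown because Rbfox1 had the largest change of the 9 regulators tested. These are the 250 bases upstream of RefSeq starts on GRCm38.p6, read 5′ to 3′ on the plus strand. The upstream start has the window chr16:5884543-5884792 and the downstream start has the window chr16:7069585-7069834, which lies within introns of longer Rbfox1 transcripts. The study searched for motifs within regions of changed histone acetylation. The capitals in the downstream window mark letters that this search lists for the muscle transcription factor MEF2A near Rbfox1. They were placed here by matching letters alone, and the position of the study's own match was not compared.
Rbfox1 upstream start: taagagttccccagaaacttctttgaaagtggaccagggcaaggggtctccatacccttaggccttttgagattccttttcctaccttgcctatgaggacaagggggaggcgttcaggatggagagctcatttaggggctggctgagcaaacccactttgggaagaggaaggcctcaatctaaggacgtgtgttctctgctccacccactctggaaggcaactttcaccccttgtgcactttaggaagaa
Rbfox1 downstream start: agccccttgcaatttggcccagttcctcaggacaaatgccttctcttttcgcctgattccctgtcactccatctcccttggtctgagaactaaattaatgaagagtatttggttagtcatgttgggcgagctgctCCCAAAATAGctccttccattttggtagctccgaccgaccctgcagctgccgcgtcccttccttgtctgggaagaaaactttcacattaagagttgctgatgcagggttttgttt
The capitals end 105 bases before the downstream start, and the upstream window does not hold these letters. CCCAAAATAG was picked from the study's list for Rbfox1, so finding it at Rbfox1 tests nothing. Read on both strands, it was found in 22 of 32817 RefSeq windows of 300 bases (250 before and 50 after a start), or 0.067%. Its shorter core AAAATAG, which any window with the longer form also holds, was found in 1385 windows, or 4.22%. Windows were given for 8 of the 10 genes, 14 in all, with none for Rbfox2 and Rbm20. The core was found in 2 of these 14, 1 of Rbfox1 and 1 of Celf2. A match of letters is a description and does not show that a factor is bound.

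Rbfox1 and Rbfox2 encode closely related proteins, so the coding sequence they share was examined to see whether reads could be assigned to the wrong gene. The longest identical run between the coding sequences of transcripts Rbfox1-203 (1251 bases) and Rbfox2-204 (1347 bases) was 29 bases, shown in capitals below with its flanks. It spans positions 592 to 620 of the Rbfox1 coding sequence and 724 to 752 of that of Rbfox2.
Rbfox1: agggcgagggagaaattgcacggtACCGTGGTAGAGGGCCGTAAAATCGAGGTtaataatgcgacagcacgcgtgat
Rbfox2: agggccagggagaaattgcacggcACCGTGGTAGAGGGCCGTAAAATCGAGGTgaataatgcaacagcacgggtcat
The reads were 75 bases long. No stretch of 75 bases in any annotated Rbfox1, Rbfox2 or Rbfox3 transcript occurred in a transcript of another gene, so a full-length exact match separates the 3 genes. The same held for Rbm20, Rbm24, Mbnl1 and Celf1. For Mbnl2, Celf2 and Ptbp1, 0.115%, 6.8% and 12.7% of such stretches, read on both strands, also occurred in other genes. Apart from Gm4900 for Ptbp1, these genes are the ones named next as overlapping, so both sets of figures count some of the same bases. On the opposite strand, 0.717%, 7.58% and 20.7% of the exon bases of Mbnl2, Celf2 and Ptbp1 overlap other annotated genes (Gm26679; Gm26565; E130317F20Rik, Gm17134 and Plppr3). Their counts are uncertain to that extent, because the strand setting used in counting is not given in the sources used here.

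The 9 libraries held between 31011055 and 40073801 counts. Arid1a itself fell from 139.8 ± 8.84 CPM (counts per 1000000 of the scaled library total; SD, n = 5) in control to 106.4 ± 5.44 CPM (SD, n = 4) in cKO hearts, without overlap between the groups. Its log2 fold change was -0.39 (SE 0.06) and passed the quasi-likelihood test of edgeR (adjusted p = 0.00132), but not in the 5 Rps3a3-low libraries described next (-0.33, adjusted p = 0.0822, beside 5.48e-07 to 0.0822 over 18 alternatives). Libraries of either genotype split into 2 sets by Rps3a3, a copy of the ribosomal gene Rps3a1. It was at 0.345 to 0.521 CPM in the Rps3a3-low set (control replicates 1 and 2, cKO replicates 1 to 3). The Rps3a3-high set (control replicates 3 to 5, cKO replicate 4) had 99.7 to 112.3 CPM of it. Rps3a1 went the other way, with 253.1 to 275.6 CPM in the Rps3a3-low set and 70.8 to 75.7 CPM in the Rps3a3-high set. What the sets stand for is not in the labels, so differences are also given within each set. Where no p-value stands beside them, they are differences of mean log2(CPM + 0.5), not fitted fold changes. The Rps3a3-high set has 1 cKO library and allows no test of its own.

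Of the 10 genes, 9 had enough reads to be tested, and 3 of these, Rbfox1, Rbfox2 and Rbm20, were lower in cKO hearts at an adjusted p under 0.05 (edgeR, adjusted over the 15318 genes tested). Among all genes tested 8.03% were lower at that threshold. Rbfox1 alone also passed the 1.5-fold threshold of a called gene, where 6.72% of all genes were called, 2.72% as lower. The same 3 genes had no overlap between the groups, against 8.58% of all genes that lay lower without overlap. Among the 9, 0 genes were higher at an adjusted p under 0.05 by edgeR or by DESeq2 (8.25% of all genes were, by edgeR), and the 4 with an unadjusted p under 0.05 in edgeR's test were all lower. The median log2 fold change of the 9 genes was -0.08, beside 0.01 over all genes tested. P-values measure the spread between the hearts of a group, and the libraries are taken as separate hearts because the labels number them as replicates.

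**Figure D1:**
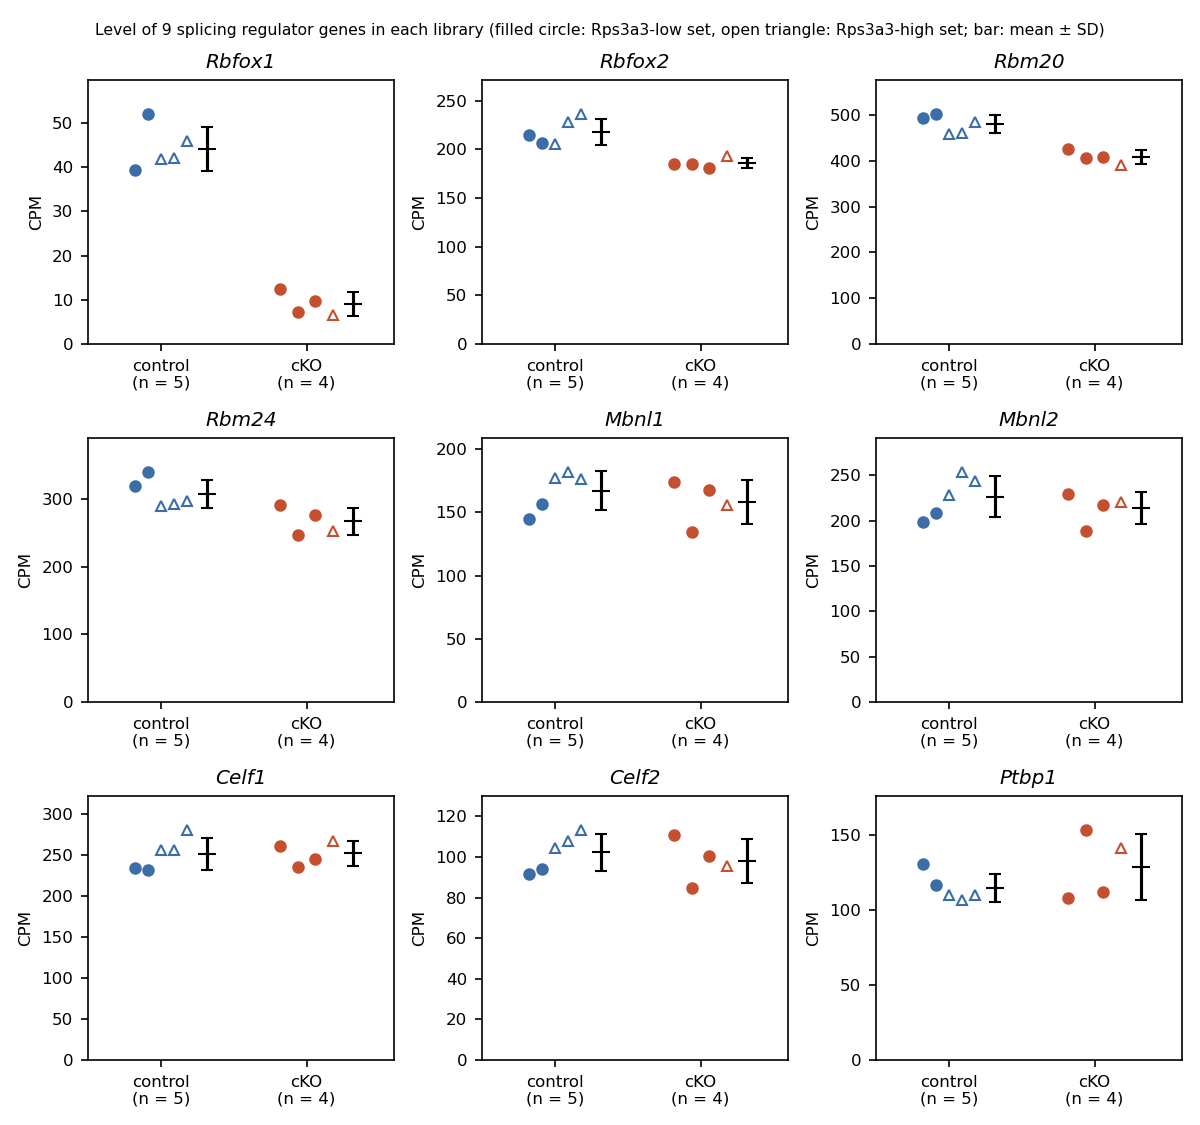
Levels of the 9 tested genes in CPM (vertical axes, from 0) in each of the 5 control (blue) and 4 cKO (red) libraries, with filled circles for the Rps3a3-low set, open triangles for the Rps3a3-high set, and a bar for the mean ± SD of each group. Rbfox1 drops from 39.3 to 52.0 CPM in controls to 6.49 to 12.5 CPM in cKO hearts, Rbfox2 and Rbm20 separate by a small margin, and the other 6 genes overlap between the groups.

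Rbfox1, the RBFOX gene expressed in heart, skeletal muscle and neurons, fell to 20.4% of its control level. Its CPM were 39.3, 52.0, 41.8, 42.0 and 45.95 in the controls (replicates 1 to 5) and 12.5, 7.34, 9.73 and 6.49 in the cKO hearts (replicates 1 to 4). Every cKO library lay far below every control library. The means were 44.2 ± 4.94 CPM (SD, n = 5) and 9.03 ± 2.71 CPM (SD, n = 4), a 4.90-fold decrease. The log2 fold change was -2.30 (SE 0.18, 95% interval -2.69 to -1.90, adjusted p = 9.31e-06, quasi-likelihood test of edgeR). Among the 15318 genes tested, 45 had a lower fold change and 77 a smaller p. The decrease was of similar size in both library sets, -2.17 (Rps3a3-low) and -2.64 (Rps3a3-high). Raw counts were 1307 to 1794 in controls and 268 to 403 in cKO hearts, so every library held enough reads to measure the gene. Since the study also named Rbfox1 from these libraries, the decrease here is not independent evidence for it. In bulk tissue, fewer cells of a type and less RNA per cell cannot be told apart.

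Rbfox2, which is expressed broadly and binds the same RNA motif, was slightly lower. The levels, in order of replicate, were 214.3, 206.4, 205.2, 227.9 and 235.7 CPM in control hearts and 184.7, 184.6, 181.1 and 193.3 CPM in cKO hearts. The groups did not overlap, but the lowest control and the highest cKO library were close. The log2 fold change was -0.23 (SE 0.06, 95% interval -0.36 to -0.10, adjusted p = 0.0209 by edgeR's test), and it was -0.20 within each library set. This result rests on single libraries: the adjusted p was over 0.05 without cKO replicate 3 (-0.22, adjusted p = 0.0681) and without control replicate 4 (-0.21, adjusted p = 0.0507). In the Rps3a3-low libraries alone the adjusted p was 0.211, and over all 18 alternatives it lay between 0.00276 and 0.211.

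Rbfox3, which encodes the neuronal nuclear antigen NeuN, had 0, 2, 0, 0 and 2 counts in control replicates 1 to 5 and 5, 4, 0 and 1 counts in cKO replicates 1 to 4. It was not tested, because it did not pass the filter on low counts (filterByExpr with a minimum count of 10). Nearly all RBFOX transcripts of these ventricles were those of Rbfox1 and Rbfox2.

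The makeup of the RBFOX family differed between the groups. Per kilobase of exon, Rbfox1 made up 25.3%, 31.8%, 27.4%, 25.4% and 26.5% of the family's CPM in control replicates 1 to 5. In cKO replicates 1 to 4 its share was 11.1%, 6.85%, 9.04% and 5.84%. Rbfox2 held nearly all the rest, with a mean of 72.7% ± 2.65 (SD, n = 5) in control and 91.7% ± 2.39 (SD, n = 4) in cKO hearts. The log2 ratio of Rbfox1 to Rbfox2 per kilobase was -1.41 ± 0.19 (SD, n = 5) in control and -3.45 ± 0.43 (SD, n = 4) in cKO hearts, or 0.377 and 0.0918 Rbfox1 per Rbfox2. The difference of -2.04 had a two-sided exact permutation p of 0.00794, the smallest that 5 and 4 libraries allow, and 0.0317 after adjustment over the 4 ratios tested. Permuting the groups within each library set gave an adjusted p of 0.1, the smallest that arrangement allows, and it lay between 0.0317 and 0.5 over 12 alternatives, most of which cannot reach 0.05. The ratio is taken within a library, so scaling between libraries enters it only through the 0.5 CPM added to each level, and the difference was -2.11 without that addition. Rbfox1 thus fell further than Rbfox2.

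**Figure D2:**
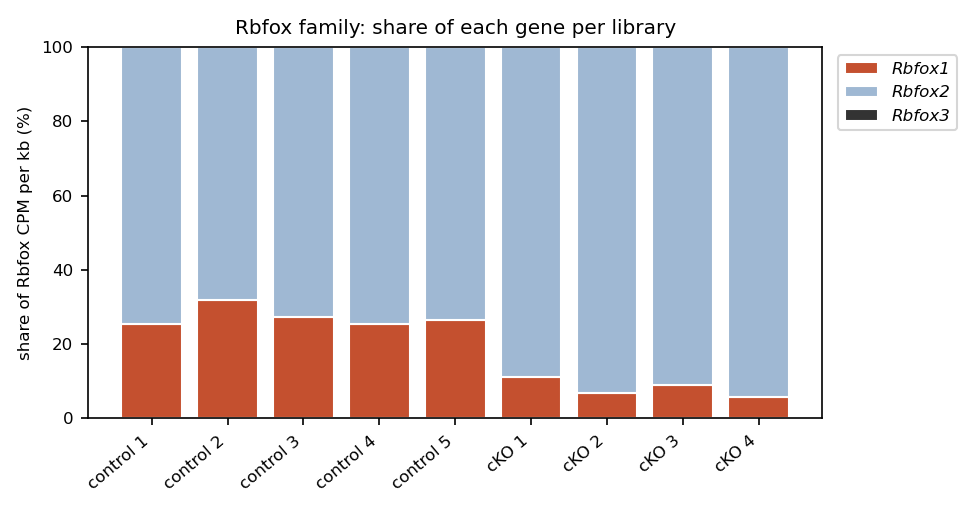
Share of Rbfox1 (red), Rbfox2 (light blue) and Rbfox3 (black, too small to see) in the RBFOX family's CPM per kilobase of exon, as stacked bars in percent for each of the 9 libraries. The Rbfox1 share is 25.3% to 31.8% in controls and 5.84% to 11.1% in cKO hearts.

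Rbm20, the regulator of titin splicing whose mutation causes dilated cardiomyopathy, was lower by a small amount. Its CPM were 494.7, 501.5, 458.2, 460.8 and 485.4 in the controls (replicates 1 to 5) and 426.4, 407.3, 408.7 and 391.0 in the cKO hearts (replicates 1 to 4). The cKO hearts all lay below the controls, and both groups varied little. The means of 480.1 ± 19.7 CPM (SD, n = 5) and 408.4 ± 14.5 CPM (SD, n = 4) gave a log2 fold change of -0.23 (SE 0.06, 95% interval -0.35 to -0.11, adjusted p = 0.0134 by edgeR's test). It was -0.27 among Rps3a3-low and -0.26 among Rps3a3-high libraries. In the Rps3a3-low libraries alone the adjusted p was 0.0868, and over 18 alternatives it ranged from 0.000205 to 0.0868.

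Rbm24, needed for sarcomere assembly and for muscle-specific exon inclusion, had a similar difference that did not pass the test. The levels, in order of replicate, were 319.1, 339.7, 290.5, 292.6 and 298.1 CPM in control hearts and 291.1, 247.7, 277.3 and 253.0 CPM in cKO hearts. Only cKO replicate 1 reached into the range of the controls. The log2 fold change was -0.20 (SE 0.07, 95% interval -0.36 to -0.05, adjusted p = 0.0712 by edgeR's test). It passed without cKO replicate 1 (-0.25, adjusted p = 0.0403), by the Wald test of DESeq2 (-0.21, adjusted p = 0.0397) and in a model that included the library set (-0.25, adjusted p = 0.0124). Over 18 alternatives the adjusted p lay between 0.0124 and 0.175.

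The muscleblind genes did not pass. Mbnl1, whose protein is sequestered by repeat RNA in myotonic dystrophy, had 145.1, 156.7, 176.9, 181.6 and 176.1 CPM in the controls (replicates 1 to 5) and 174.0, 134.6, 168.0 and 155.6 CPM in the cKO hearts (replicates 1 to 4). Mbnl2, its paralog, was measured at 198.5, 208.4, 228.5, 253.0 and 243.8 CPM in the controls and 229.0, 188.2, 216.9 and 220.3 CPM in the cKO hearts. For both genes the groups overlapped widely. The log2 fold changes were -0.08 for Mbnl1 (95% interval -0.28 to 0.11, adjusted p = 0.585 by edgeR's test) and -0.08 for Mbnl2 (95% interval -0.27 to 0.10, adjusted p = 0.547). Within the Rps3a3-low set the differences were 0.07 and 0.05, against -0.20 and -0.13 in the Rps3a3-high set. The log2 ratio of Mbnl1 to Mbnl2 was -1.08 ± 0.05 (SD, n = 5) in control and -1.08 ± 0.06 (SD, n = 4) in cKO hearts (two-sided exact permutation p = 0.992, adjusted over 4 ratios = 0.992).

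The CELF genes did not pass either. Celf1, whose protein declines in the heart after birth, had 233.5, 231.2, 255.8, 255.8 and 279.6 CPM in the controls (replicates 1 to 5) and 260.9, 234.5, 244.5 and 267.1 CPM in the cKO hearts (replicates 1 to 4). Celf2, its close paralog, was measured at 91.8, 94.3, 104.3, 107.8 and 113.1 CPM in the controls and 110.9, 84.8, 100.6 and 95.6 CPM in the cKO hearts. The groups overlapped over nearly their whole ranges. The log2 fold change of Celf1 was 0.00 (SE 0.07, 95% interval -0.15 to 0.16, adjusted p = 0.983 by edgeR's test). For Celf2 it was -0.06 (95% interval -0.25 to 0.13, adjusted p = 0.678 by edgeR's test), with 0.08 among Rps3a3-low and -0.18 among Rps3a3-high libraries. The balance of Mbnl1 to Celf1, as a log2 ratio per kilobase, was -1.73 ± 0.08 (SD, n = 5) in control and -1.82 ± 0.13 (SD, n = 4) in cKO hearts, a difference of -0.09 (two-sided exact permutation p = 0.262, adjusted over 4 ratios = 0.423). The ratio of Celf1 to Celf2 differed by 0.07 (two-sided exact permutation p = 0.317, adjusted over 4 ratios = 0.423).

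Ptbp1, the repressor of muscle and neuronal exons that is known to decline as cardiomyocytes differentiate, varied among the cKO hearts and did not pass. Its CPM were 130.6, 116.5, 109.8, 107.0 and 110.1 in the controls (replicates 1 to 5) and 107.8, 153.2, 112.3 and 141.8 in the cKO hearts (replicates 1 to 4). Replicates 2 and 4 of the cKO lay above all controls, while replicates 1 and 3 lay within their range. The log2 fold change was 0.17 (SE 0.11, 95% interval -0.06 to 0.40, adjusted p = 0.322 by edgeR's test), with -0.01 among Rps3a3-low and 0.38 among Rps3a3-high libraries.

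**Figure D3:**
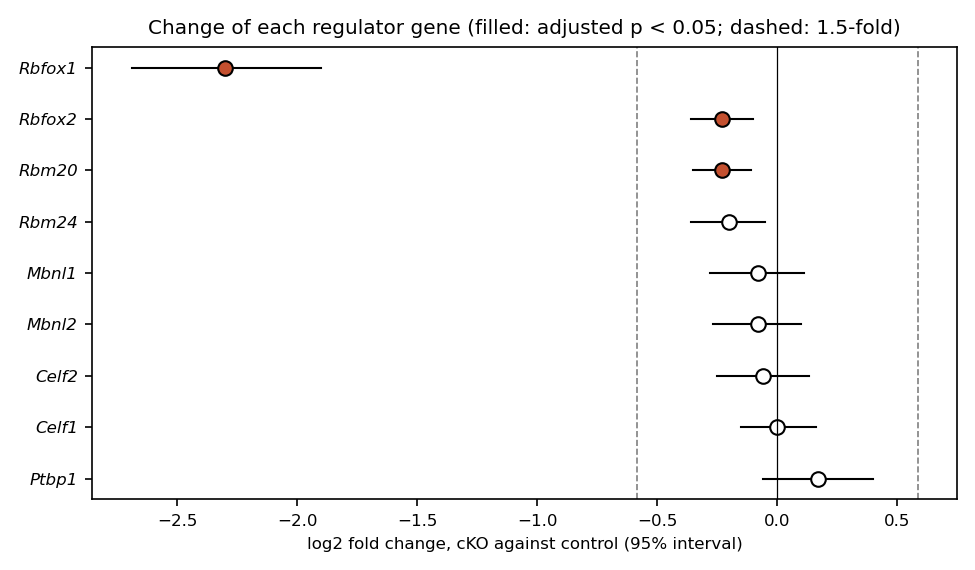
Log2 fold change of each tested gene in cKO against control hearts (horizontal axis) with its 95% interval, filled where the adjusted p is under 0.05, with dashed lines at 1.5-fold. Rbfox1 at -2.30 lies beyond the 1.5-fold line with its whole interval, Rbfox2 and Rbm20 lie at -0.23, and the intervals of Mbnl1, Mbnl2, Celf1, Celf2 and Ptbp1 include 0.

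Differences between the library sets were visible within the controls. Mbnl1, Mbnl2, Celf1 and Celf2 were lower in control replicates 1 and 2, of the Rps3a3-low set, than in control replicates 3 to 5. Rbm20, Rbm24 and Ptbp1 were higher in control replicates 1 and 2 than in the other 3 controls. Rbfox1 and Rbfox2 overlapped between the control libraries of the sets. Among the cKO hearts, replicate 2 held the lowest Mbnl1, Mbnl2, Celf2 and Rbm24 and the highest Ptbp1 of all 9 libraries.

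Per kilobase of exon, the control levels ran from Rbm24 at 88.2 ± 6.03 CPM and Rbm20 at 70.7 ± 2.90 CPM (SD, n = 5) down to Celf2 at 3.95 ± 0.349 CPM, with Rbfox3 last. Between them lay Celf1 at 29.7 CPM, Rbfox2 at 26.8 CPM, Ptbp1 at 24.2 CPM, Mbnl2 at 18.9 CPM, Rbfox1 at 10.1 CPM and Mbnl1 at 8.94 CPM per kilobase. The ranges of Celf1 and Rbfox2, of Rbfox2 and Ptbp1, and of Rbfox1 and Mbnl1 overlapped, so the order within these pairs is not settled. In cKO hearts Rbfox1, at 2.05 ± 0.617 CPM per kilobase (SD, n = 4), went from rank 7 to rank 9, below Celf2 at 3.79 ± 0.420 CPM per kilobase. These levels divide by the length of all annotated exons, so a gene with long alternative ends, such as Celf2 or Mbnl1, can appear lower than its transcripts are.

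The cell markers of these libraries were those of ventricle, with changes of their own. Cardiomyocyte markers summed to 43870 to 52080 CPM in control and 38840 to 43900 CPM in cKO hearts. Of 10 cardiomyocyte markers 2 were lower at an adjusted p under 0.05 by edgeR (8.03% of all genes were lower), Pln (-0.45, adjusted p = 0.00875) and Myl2 (-0.43, adjusted p = 0.00124), and none was higher, with a median log2 fold change of -0.18. When only the Rps3a3-low libraries were fitted, 1 of 10 was lower. Fibroblast markers summed to 6923 to 8213 CPM in control and 8559 to 9507 CPM in cKO hearts, and 4 of 8 were higher (Col1a1, Col1a2, Tcf21 and Postn), beside 8.25% of all genes. Within the Rps3a3-low set 2 of 8 were higher. All 7 macrophage markers had positive log2 fold changes, with a median of 0.45, but 0 were higher at an adjusted p under 0.05 by edgeR. When only the Rps3a3-low libraries were fitted, 1 of 7 was higher. Beside these stand the log2 fold changes of -0.23 for Rbm20 and Rbfox2 and -2.30 for Rbfox1, and the part of cell composition in them was not tested. Of 8 skeletal muscle markers, the lineage factors Myod1 and Pax7 had 0 counts in every library, which allows up to 3 counts per library. Myf5, another lineage factor, had reads in 3 libraries, at most 0.0903 CPM, and Myh4, a fast myosin gene, had 0.116 to 0.579 CPM in all 9. The other 4 were tested. Of these Acta1, which the heart also expresses, was higher in cKO hearts (log2 fold change 2.18, adjusted p = 0.0369 by edgeR's test), while Tnni2 (0.80), Tnnt3 (0.62) and Ckm (-0.11) did not pass. The Acta1 level ranged from 43.2 to 86.3 CPM among the controls, and the cKO hearts (replicates 1 to 4) measured 53.6, 363.4, 402.2 and 195.7 CPM, so that cKO replicate 1 lay within the control range. With the Rps3a3-low libraries alone, 0 of 4 skeletal muscle markers passed by edgeR, with 0 at an unadjusted p under 0.05. Of 8 neuronal markers, Th had 0 counts in 8 of 9 libraries, Snap25 was at most 0.404 CPM, and 4 were tested. Dbh was higher in cKO hearts (0.61, adjusted p = 0.0258 by edgeR's test), and Tubb3 (0.86), Stmn2 (-0.17) and Prph (-0.08) did not pass. Of 6 atrial markers, Nppa and Myl7 were higher (3.92 and 1.2), and Myl4 (0.16), Sln (-1.25), Nr2f1 (-0.28) and Nr2f2 (-0.14) did not pass, with a median of 0.01. Of the Rps3a3-low fit's tested markers, 1 of 6 atrial ones was higher and 0 of 5 neuronal ones passed by edgeR, with 1 neuronal marker at an unadjusted p under 0.05.

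Paralogs and partners of the 10 genes were measured beside them. Of 11 listed paralogs and partners (Mbnl3, Celf3 to Celf6, Ptbp2, Ptbp3, Rbm38, Raver1, Raver2 and Matr3), 9 were tested and 0 passed at an adjusted p under 0.05 by edgeR or by DESeq2, with 1 at an unadjusted p under 0.05. Of all genes 16.3% passed, and with 9 genes nothing is read from the difference. That gene was Ptbp2, the neuronal paralog of Ptbp1, at 59.5 ± 3.87 CPM (SD, n = 5) in control and 52.1 ± 5.60 CPM (SD, n = 4) in cKO hearts (-0.19, adjusted p = 0.142 by edgeR's test). Per kilobase, Mbnl1 made up 31.8% of its family in both groups, Celf1 87.8% in control and 88.3% in cKO hearts, and Ptbp1 56.3% ± 3.58 (SD, n = 5) and 59.6% ± 6.59 (SD, n = 4).

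Other regulators of tissue-specific splicing that passed the test lay in both directions. Of 20 tested, 2 rose and 4 fell at an adjusted p under 0.05 by edgeR (30.0% of the list, beside 16.3% of all genes tested), with a median log2 fold change of -0.13. In the Rps3a3-low libraries alone 0 were higher and 1 was lower by edgeR, with 2 higher and 5 lower at an unadjusted p under 0.05, and without cKO replicate 3 also 0 were higher. The 2 that were higher are expressed at low levels. Msi1, a neural RNA-binding protein gene, had 2.48 ± 0.918 CPM (SD, n = 5) in control and 4.68 ± 1.07 CPM (SD, n = 4) in cKO hearts (0.92), and Esrp2, an epithelial regulator, had 0.787 ± 0.179 CPM (SD, n = 5) and 1.48 ± 0.229 CPM (SD, n = 4) (0.91). Nova1, a neuronal regulator, was lower (-0.50, adjusted p = 0.0393 by edgeR's test). Msi1 no longer passed without any one of cKO replicates 2, 3 and 4 or control replicates 1, 2 and 3 (adjusted p 0.0523 to 0.0974), Nova1 without any one of cKO replicates 2 and 3 or control replicates 2 to 5 (0.0683 to 0.112), and Esrp2 without cKO replicate 3 (0.0651).

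Among SR proteins, which bind exonic enhancers, and their kinases, all genes that passed were lower. Of 20 tested, 0 rose by edgeR or DESeq2 and 5 fell at an adjusted p under 0.05 by edgeR (25.0%, beside 8.03% of all genes lower), and 11 had an unadjusted p under 0.05. Their median was -0.17. Clk4, a kinase of SR proteins, fell from 89.6 ± 13.4 to 63.6 ± 6.40 CPM (SD, n = 5 and 4; -0.49, adjusted p = 0.0106 by edgeR's test). Srsf3 fell from 268.3 ± 12.1 to 196.7 ± 17.1 CPM (SD, n = 5 and 4), without overlap (-0.45, adjusted p = 0.000876 by edgeR's test). Srsf5 was lower by less (-0.26, adjusted p = 0.0211 by edgeR's test), and no longer passed without cKO replicate 2, cKO replicate 3 or control replicate 3 (adjusted p 0.0507 to 0.0523). The same 3 omissions each left 3 lower genes. In the Rps3a3-low libraries alone 0 of the 20 passed by edgeR, with 2 lower and 1 higher at an unadjusted p under 0.05. There Srsf3 was at -0.41 (adjusted p = 0.0638) and Clk4, with a smaller difference, at -0.28 (adjusted p = 0.29), beside ranges over the 18 alternatives of 3.03e-08 to 0.0638 and 0.000522 to 0.29.

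The hnRNP genes, whose products often oppose SR proteins, had 1 of 23 higher and 3 lower with an adjusted p under 0.05 by edgeR (17.4%, beside 16.3% of all genes), so their share was near the background. Hnrnph3 was the most changed (63.7 ± 5.48 to 47.0 ± 2.62 CPM, SD, n = 5 and 4, log2 fold change -0.44, adjusted p = 0.00217 by edgeR's test). Hnrnpa2b1 and Hnrnpdl were at -0.28 each. The count of lower genes fell to 1 without cKO replicate 2 or 3 or control replicate 3 or 4, rose to 5 without control replicate 1, and was 7 by DESeq2. In the Rps3a3-low libraries alone 0 of 23 passed by edgeR, with 2 lower and 0 higher at an unadjusted p under 0.05. The higher gene, Pcbp1 (0.21, adjusted p = 0.0476 by edgeR's test), named after its value was seen, passed in only 2 of the 9 omissions, those of cKO replicate 1 and control replicate 1. Hnrnpa2b1 no longer passed without any one of 6 libraries (cKO replicates 1 to 3 and control replicates 3 to 5, adjusted p 0.0684 to 0.129), and Hnrnpdl without cKO replicate 2 or 3 or control replicate 3 or 4 (0.0552 to 0.0634).

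Few genes of the core spliceosome passed. Of 41 genes of the small nuclear ribonucleoproteins and associated factors, 2 were higher and 1 lower (7.32%, beside 16.3% of all genes), with a median of 0.03. With 1 library left out at a time, 0 to 2 were higher and 1 to 2 lower. In the Rps3a3-low libraries alone 0 were higher and 1 was lower, and with the replicate block 0 were higher. Prpf19, a subunit of the complex that activates the spliceosome, was lower in every cKO heart (288.4 ± 8.53 to 221.8 ± 9.89 CPM, SD, n = 5 and 4, log2 fold change -0.38, adjusted p = 0.000606 by edgeR's test) and passed under all 18 alternatives. Lsm4, an Sm-like protein gene, was higher (0.47, adjusted p = 0.0177 by edgeR's test), but not past the threshold without control replicate 5 (0.43, adjusted p = 0.055). Snrnp200, a spliceosomal helicase gene, was higher by 0.16 (adjusted p = 0.04 by edgeR's test) and kept an adjusted p under 0.05 only when cKO replicate 2 was left out, among the 9 omissions.

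**Figure D4:**
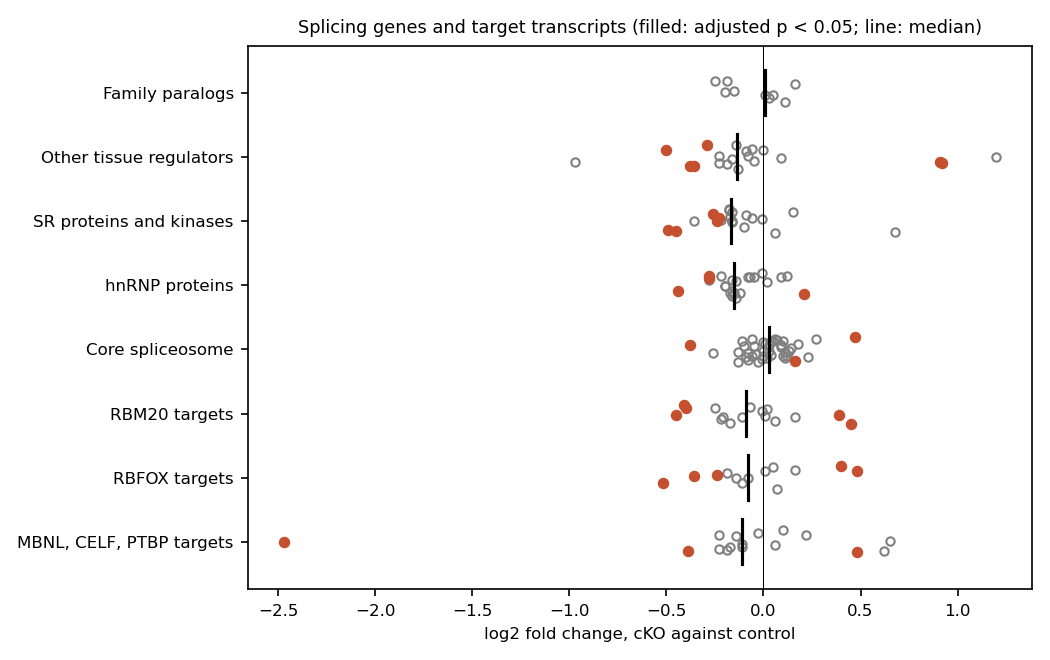
Log2 fold change in cKO against control hearts (horizontal axis) for the tested genes of 8 lists, 1 point a gene, filled where the adjusted p is under 0.05, with a vertical line at each median. Medians lie between -0.17 for SR proteins and 0.03 for the core spliceosome, and Clcn1 at -2.47 stands apart.

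Transcripts known as targets of these regulators were measured as levels. Of 16 RBM20 targets, 2 were higher and 3 lower (31.2%, beside 16.3% of all genes), with a median of -0.09, and in the Rps3a3-low libraries alone 1 was higher and 1 lower. The count of higher targets was also 1 without cKO replicate 4, without control replicate 5 or with the replicate block, and 5 were lower with the library set as a term. Nexn, a Z-disc protein gene, was lower at -0.45 (adjusted p = 0.00187 by edgeR's test) and Lmo7, an adhesion protein gene, at -0.41 (adjusted p = 0.000438). Ttn, the main RBM20 target, was at 4136 ± 216.4 CPM (SD, n = 5) in control and 3929 ± 126.6 CPM (SD, n = 4) in cKO hearts (-0.07, adjusted p = 0.437 by edgeR's test).

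Of 13 RBFOX targets, 2 were higher and 3 lower (38.5%, beside 16.3% of all genes), with a median of -0.08, and in the Rps3a3-low libraries alone 1 was higher and 1 lower. Mef2c, a transcription factor gene with an alternative exon under RBFOX control, was lower without overlap, at 133.3 ± 10.3 CPM (SD, n = 5) in control and 93.2 ± 10.6 CPM (SD, n = 4) in cKO hearts (-0.52, adjusted p = 0.00168 by edgeR's test). Actn1, encoding α-actinin-1, was higher at 0.48 (adjusted p = 0.000482 by edgeR's test). Fn1, encoding fibronectin, was higher at 0.40 (adjusted p = 0.0216), but no longer passed without cKO replicate 2 or 4 or control replicate 2 or 3 (adjusted p 0.0503 to 0.0576), which left 1 higher target. It is a product of fibroblasts, of whose 8 markers 4 also rose, and the part of that in its level was not tested.

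Of 16 tested targets of MBNL, CELF and PTBP proteins, 1 was higher and 2 were lower (18.8%, near the 16.3% of all genes), with a median of -0.11. The count of lower genes was 5 by DESeq2 and 4 in a model with the library set, and that of higher genes was 2 with upper-quartile scaling or a mean of at least 1 CPM. Clcn1, the chloride channel gene whose exon choice fails in myotonic dystrophy, was low in these hearts and fell further. Its CPM were 5.72, 5.33, 3.93, 4.12 and 4.79 in the controls (replicates 1 to 5) and 0.747, 1.06, 0.753 and 0.872 in the cKO hearts (replicates 1 to 4). All cKO libraries lay well below all controls, and edgeR's test gave an adjusted p of 5.23e-06 (log2 fold change -2.47, SE 0.19). The higher target is Actn1, which is also on the RBFOX list. Of the genes named above from the splicing and target lists for their adjusted p, Prpf19, Lmo7, Actn1 and Clcn1 also passed in the Rps3a3-low libraries alone and 14 did not, all with the same sign as in the 9 libraries.

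The genes whose levels were most like those of Rbfox1 over the 9 libraries were Efnb3, Sned1, Mov10l1, Fbxw7 and Kcnj3, among 10686 candidates. Pearson correlations of log2(CPM + 0.5) with Rbfox1 were 0.995, 0.995, 0.994, 0.994 and 0.992. These describe the likeness only, since the groups stand apart in all 6 genes and the difference between them enters the correlation. Efnb3, an ephrin ligand gene, had 171.1, 192.0, 175.8, 174.6 and 192.2 CPM in the controls and 56.6, 33.9, 35.8 and 24.7 CPM in the cKO hearts, in order of replicate (-2.26). Kcnj3, a potassium channel subunit gene, fell the most (-4.10), with 28.5 ± 3.86 CPM in control and 1.68 ± 1.39 CPM in cKO hearts (SD, n = 5 and 4). Fbxw7, a ubiquitin ligase subunit gene, fell by 1.03 on the log2 scale. After subtracting the group means, the closest of the 10686 candidates were Fbxw7, Ypel1, Smoc2, Fyco1 and Gpcpd1, with correlations of 0.963, 0.959, 0.957, 0.956 and 0.955 over the same 9 libraries. Of these, Ypel1 and Gpcpd1 had log2 fold changes of -0.15 and -0.09 that did not pass (adjusted p = 0.514 and 0.636 by edgeR's test). Rbfox1, Efnb3, Sned1, Mov10l1, Fbxw7 and Kcnj3 were all highest among the cKO hearts in replicate 1. The last 5 were chosen for likeness to Rbfox1, so this shared peak follows in part from the choice.

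**Figure D5:**
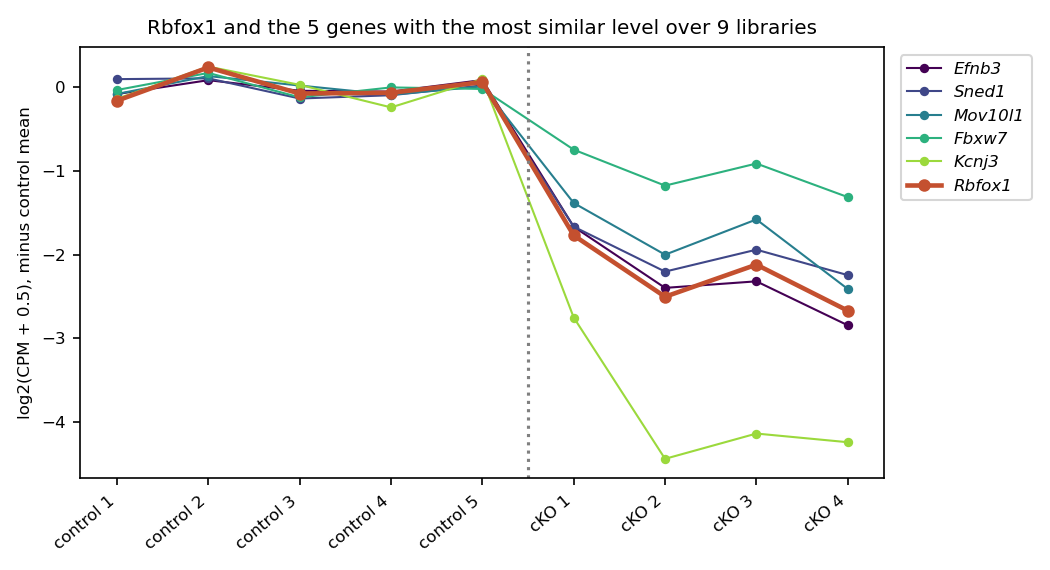
Level of Rbfox1 (thick red line) and of its 5 most similar genes in each library, as log2(CPM + 0.5) minus the gene's control mean (vertical axis), with a dotted line between the 5 control and 4 cKO libraries. All 6 genes are lower in every cKO library. Their fitted log2 fold changes, which are not the values drawn, run from -1.03 for Fbxw7 to -4.10 for Kcnj3.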

How the data were processed

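Ventricular RNA of P7 mice was sequenced as stranded poly(A) libraries, single end, 75 bases. The authors deposited raw read counts per Ensembl gene, 1 column per library. The submitters' processing notes name STAR 2.4.2a, HTSeq 0.6.1 and mm10. The annotation release and strand setting are not given in the sources used here. Total counts were 31011055 to 40073801 per library.

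Symbols, coordinates and exon lengths came from GENCODE M21 on GRCm38, which mm10 denotes, and promoter windows from RefSeq (GRCm38.p6). Of 38293 identifiers 36429 had a symbol, with 99.82% of the counts. CPM were counts divided by TMM-scaled totals, per 1000000, and levels between genes were also divided by exon length. Genes were tested in R 4.3.3 with edgeR 4.0.16 by quasi-likelihood F tests (filterByExpr with minimum count 10, TMM, robust, genotype only), with Benjamini-Hochberg adjustment over 15318 genes and a call at adjusted p under 0.05 and over 1.5-fold, thresholds that follow the study. Tests were two-sided, and intervals are 95% intervals from the t distribution. Ratios used log2 CPM per kilobase with 0.5 CPM added to each level, and two-sided exact permutation of the group labels. The study's methods state fewer controls than its labels, and all 5 labelled controls were used.

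Named genes were all 10 regulators, Arid1a, up to 3 genes per list with the largest change at adjusted p under 0.05 and a mean of at least 1 CPM, the 5 genes most like Rbfox1 by each measure with a mean of at least 5 CPM, Rps3a3 and Rps3a1, and marker genes where they bear on a result. Ttn, Ptbp2 and Pcbp1 were named after their values were seen. Some genes that this rule selects are not reported here. The regulators and lists were chosen with earlier results of these data known. Alternatives were DESeq2 1.42.0, RLE and upper-quartile scaling, no filter, a mean of 1 CPM, the replicate block, the library set as a term, the Rps3a3-low libraries alone, Xist as a term and each library left out.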

Additional observations from a re-analysis of the deposited data

How the results depend on the processing

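Rbfox1 passed under all 18 alternatives, with log2 fold changes of -2.49 to -2.17 and adjusted p of 5.95e-40 to 0.00219. In the Rps3a3-low libraries alone, with 5 samples, 620 genes were called and 849 passed an adjusted p under 0.05, Rbfox2 was at -0.20 (0.211), Rbm20 at -0.27 (0.0868), and Mbnl1, Mbnl2 and Celf2 turned to 0.07, 0.05 and 0.09 (0.812, 0.842 and 0.772). The cause was not tested. With the replicate number as a block, Rbfox2 was at -0.20 (adjusted p = 0.0786) and Rbm20 at -0.23 (adjusted p = 0.0553), and the Rbfox1 to Rbfox2 ratio differed by -2.05 (adjusted p = 0.5, where 4 pairs cannot give a raw p under 0.125). The block also left 2 of 5 lower SR genes. Same-numbered libraries correlated at -0.0518, 0.0667, -0.0081 and 0.302, so the numbers were not taken to pair hearts. Rbm24 passed by DESeq2 (-0.21, 0.0397) and with the library set as a term (-0.25, 0.0124). Permuted within the library sets the ratio differed by -2.04 with an adjusted p of 0.1. Leaving out 1 library at a time gave log2 fold changes of -0.25 to -0.21 for Rbfox2, -0.26 to -0.21 for Rbm20 and -0.25 to -0.17 for Rbm24, and -2.21 to -1.89 for the ratio (adjusted p 0.0714 to 0.114, as fewer splits cannot reach 0.05 after adjustment). No scaling alternative moved the median over all genes to more than 0.023. Depth limits Rbfox3, with 5 counts at most.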
